A study of Mus musculus with 11 samples.

Results

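Genes whose transcripts were higher in every estradiol-treated than in every vehicle-treated library of mouse colon enterochromaffin (EC) cells were examined, 8 of the 49997 genes listed. They are Gpr35, Pla2g3, Slc17a4, Zfp217, Tnni1, Clmn, Pigq and Zdhhc13. The members were chosen from these EC libraries, for a complete separation of the groups and a large rise, so their EC values are a description without a test. The same genes in a second cell type, L cells, were not used for the choice and were tested.

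All donors were ovariectomized C57BL/6 females of 10 to 14 weeks, so the vehicle groups also lacked ovarian hormones. They received either the vehicle, sesame oil, or estradiol benzoate (EB), from which the body releases estradiol. EC cells, at least 500 a sample, came from mice with the genotype ECFLTG, with 2 vehicle and 4 EB libraries, and no time between treatment and isolation is stated for them. L cells came from Cck-Cre;R26LSL-tdTomato mice, in which Cre under Cck control switches on a red fluorescent protein, 4 hours after treatment, with 2 vehicle and 3 EB libraries and about 7000 cells for a treatment group. Whether libraries of a group derive from different mice is not stated, so the p-values given here reflect only how far these libraries scatter, perhaps for technical reasons.

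EC cells are the serotonin-releasing cells of the gut epithelium, and L cells secrete peptide hormones such as peptide YY. Both are rare among colonocytes, the absorptive cells that line the colon. Estradiol acts through nuclear receptors that bind DNA as dimers at estrogen response elements and through other routes that do not need these elements. The 8 genes belong to no common pathway. Gpr35 is a G protein-coupled receptor of gut epithelium and immune cells. Pla2g3 is a secreted phospholipase, Slc17a4 an intestinal anion carrier, and Zfp217 a repressor of transcription. Tnni1 is a troponin, Clmn an actin-binding membrane protein, Pigq part of the enzyme that starts GPI anchors, and Zdhhc13 a palmitoyl transferase.

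The DNA around annotated transcript starts is shown because the genes were chosen for a rise under a steroid whose receptor binds DNA. RefSeq promoter windows of GRCm38.p6, the assembly of mm10, from 250 bases before to 50 bases after a start, were matched for 5 of the 8 genes, in 8 windows; Pla2g3, Slc17a4 and Zdhhc13 had none in the table. The windows printed for Gpr35, Tnni1, Zfp217 and Pigq lie inside the span of their gene, at inner starts. That of Clmn lies at the outer end of its gene. Capitals mark the estrogen receptor core GGTCA or, read from the other strand, its complement TGACC. All sequences run 5′ to 3′ on the strand of the gene.
Gpr35, chr1:92978653-92978952, plus strand: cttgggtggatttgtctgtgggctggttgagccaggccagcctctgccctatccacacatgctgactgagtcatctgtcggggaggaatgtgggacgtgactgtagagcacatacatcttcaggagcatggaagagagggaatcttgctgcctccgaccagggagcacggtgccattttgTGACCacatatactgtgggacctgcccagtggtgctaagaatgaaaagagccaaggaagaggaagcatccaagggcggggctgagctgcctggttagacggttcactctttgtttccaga
Tnni1, chr1:135799261-135799560, plus strand: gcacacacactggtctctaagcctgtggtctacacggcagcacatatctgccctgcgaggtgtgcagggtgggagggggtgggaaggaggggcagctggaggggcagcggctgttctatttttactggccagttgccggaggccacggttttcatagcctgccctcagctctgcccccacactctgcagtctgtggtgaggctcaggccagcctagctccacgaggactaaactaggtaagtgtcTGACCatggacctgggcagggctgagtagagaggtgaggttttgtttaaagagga
Zfp217, chr2:170131171-170131470, minus strand: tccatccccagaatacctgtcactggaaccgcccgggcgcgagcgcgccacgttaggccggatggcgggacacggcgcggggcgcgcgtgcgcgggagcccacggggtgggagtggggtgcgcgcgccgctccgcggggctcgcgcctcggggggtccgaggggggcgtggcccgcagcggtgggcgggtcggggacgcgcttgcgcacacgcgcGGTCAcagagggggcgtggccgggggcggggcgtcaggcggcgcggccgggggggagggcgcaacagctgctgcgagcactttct
Clmn, chr12:104865027-104865326, minus strand: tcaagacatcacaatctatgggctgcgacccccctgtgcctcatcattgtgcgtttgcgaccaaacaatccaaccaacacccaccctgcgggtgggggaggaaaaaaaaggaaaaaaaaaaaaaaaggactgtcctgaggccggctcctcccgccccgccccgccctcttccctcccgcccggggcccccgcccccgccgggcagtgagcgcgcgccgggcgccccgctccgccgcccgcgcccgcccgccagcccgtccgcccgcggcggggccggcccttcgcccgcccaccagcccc
Pigq, chr17:25941940-25942239, minus strand: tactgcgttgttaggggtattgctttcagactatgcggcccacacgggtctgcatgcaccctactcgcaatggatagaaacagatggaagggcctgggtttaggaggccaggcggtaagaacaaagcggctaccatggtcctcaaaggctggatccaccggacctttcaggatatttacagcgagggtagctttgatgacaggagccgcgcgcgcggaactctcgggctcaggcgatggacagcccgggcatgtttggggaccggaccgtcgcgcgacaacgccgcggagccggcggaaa
The core was found, on either strand, in 3 of the 8 windows, those printed for Gpr35, Tnni1 and Zfp217, and in 40.5% of the 32851 mouse promoter windows of the same length. The full response element, GGTCA and TGACC with 3 bases of any kind between them, which contains the core, was in 0 of the 8 windows and in 0.0700% of all windows. Letters typical of sites of gut epithelial factors, TTTATG for CDX2, CAAAGTCCA for HNF4A and GGGTGTGG for KLF4, were in 0 of the 8 windows, against 11.9%, 0.475% and 3.56% of all. The windows differed in CpG content. Those printed for Zfp217, Clmn and Pigq held 49, 33 and 26 CpG pairs and those for Gpr35 and Tnni1 held 6 each, against a median of 7 over all windows. Gpr35, Tnni1 and Zfp217 each had another window, and the one with the core is printed. The unprinted windows of these genes lacked the core and held 0, 5 and 7 CpG pairs. A missing match says only that these letters are not in this window.

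Reads counted on genes numbered 4955808 to 10640921 in an EC library and 27658579 to 31449447 in an L-cell library. The labelled EC cells showed their defining transcripts at very unequal levels: a list of 10 EC markers took 7.42% and 8.92% of reads under vehicle, and 0.818%, 1.12%, 4.80% and 12.5% in EB replicates 1, 2, 3 and 4. EB replicates 1 and 2 therefore stood apart from the other EC libraries and go against their label in part. The channel gene Trpa1, one of these markers, was at 0 reads in 5 of the 6 EC libraries. Colonocyte markers, a list of 20 genes that includes Car1, moved in the opposite way, with 1.40% and 0.359% under vehicle and 3.70%, 4.06%, 1.23% and 0.716% under EB. Transcripts of the mitochondrial genome took 4.42% and 2.84% under vehicle, and 21.0%, 13.2%, 15.8% and 3.83% under EB. Markers of goblet cells, the mucus-secreting cells, took 1.37% and 0.130% under vehicle and 0.0422%, 0.0742%, 0.780% and 0.0769% under EB. In L-cell libraries, markers of L cells took 0.0409% and 0.0154% of reads under vehicle and 0.0566%, 0.172% and 0.280% under EB, against 0.115% to 1.74% in EC libraries, and colonocyte markers took 7.17% to 10.6%. The names EC cells and L cells stand below for those libraries, whose values need not come from these cells alone. In such bulk samples, fewer cells of a type and less RNA per cell cannot be told apart.

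**Figure D1:**
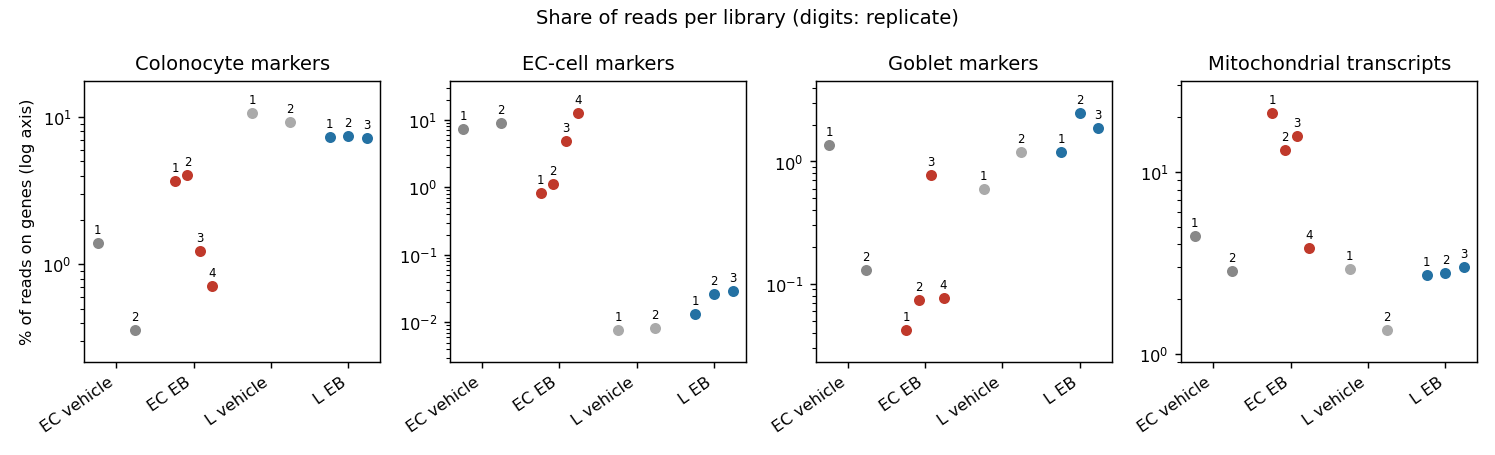
Share of reads on the colonocyte, EC-cell, goblet-cell and mitochondrial lists in each library, in percent on logarithmic axes, with a point for each library and its replicate number. The colonocyte share is 3.70% and 4.06% in EC EB replicates 1 and 2, against 0.359% to 1.40% in the 4 other EC libraries.

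All 8 genes were higher in every EB than in every vehicle library of EC cells, which is the condition that chose them. Of the 15287 genes kept in EC cells, 761 met it, or 4.98%, and 6.30% were lower in every EB library; nothing is read from the members' count. The values are normalised counts, reads divided by a size factor of the library. Vehicle replicate 2 was the lowest library for all 8, jointly with vehicle replicate 1 for Pla2g3.

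Gpr35 encodes a receptor for which kynurenic acid, lysophosphatidic acid and hydroxyindoleacetic acid, a breakdown product of serotonin, have been proposed as ligands. It stood at 8.80 and 0 normalised counts under vehicle and at 225, 473, 68.3 and 354 in EB replicates 1 to 4. These values rest on 19 and 0 reads under vehicle and on 160, 363, 79 and 443 reads under EB. The lowest EB library, replicate 3, was 7.76 times the higher vehicle library, and the ratio of the group means, 280.1 ± 174 (SD, n = 4) to 4.40 ± 6.22 (SD, n = 2), was 63.7.

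Pla2g3 encodes group III secreted phospholipase A2, which frees fatty acids and lysophospholipids from membranes. No read was counted in either vehicle library, and 92, 184, 66 and 52 reads in the EB libraries, which gave 129, 240, 57.0 and 41.6 normalised counts. A count of 3 reads over both vehicle libraries would make 0.978 normalised counts. The EB mean, 116.9 ± 90.4 (SD, n = 4), was 119-fold that limit, which covers counting error only and not the spread of the libraries. The ratio rests on the depth of vehicle replicate 1: it was 35.3-fold without that library, and 77.6-fold without EB replicate 2. Pla2g3 shares 401 of its 4696 exon bases, 8.54%, with Inpp5j on the other strand, and no source used here states whether reads were counted by strand. Inpp5j stood at 365 and 229 normalised counts under vehicle and at 903, 1157, 309 and 219 under EB, so its groups overlapped.

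Slc17a4 encodes a carrier of organic anions and phosphate in the intestine. Its vehicle libraries were at 38.9 and 3.31 normalised counts and its EB libraries at 1682, 610, 128 and 211. EB replicate 1 was far above the others and replicate 3 the lowest of the EB group, and the ratio of group means was 31.2.

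Zfp217, whose human counterpart ZNF217 recruits the corepressor CoREST and the demethylase LSD1 and is amplified in breast cancers, stood at 18.1 and 2.21 normalised counts under vehicle. The EB libraries were at 341, 221.5, 154 and 158. The lowest of them was 8.52 times the higher vehicle library, the widest margin of the 7 genes with a read under vehicle, and the ratio of means was 21.6.

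Tnni1 encodes the inhibitory troponin subunit of slow skeletal muscle fibres. It was at 15.3 and 3.31 normalised counts under vehicle and at 921, 704, 144 and 44.0 under EB, so EB replicate 4 was the lowest of the EB group and still 2.88 times the higher vehicle library. The ratio of means was 48.8. A list of 9 muscle markers took 0.000585% to 0.00430% of reads under vehicle and 0.000358% to 0.00275% under EB.

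Clmn encodes calmin, a membrane protein with actin-binding calponin homology domains. Its vehicle libraries lay far apart, at 164 and 16.5 normalised counts, against 1179, 1394, 269.6 and 353 under EB. The narrowest margin of the 8 genes was here: the lowest EB library was 1.65 times the higher vehicle library, while the ratio of means was 8.86.

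Pigq encodes a subunit of the enzyme that transfers N-acetylglucosamine to phosphatidylinositol at the start of GPI anchor synthesis. It stood at 100.5 and 81.6 normalised counts under vehicle and at 549, 380.5, 382 and 376 under EB, where replicate 1 was far above the other libraries, which lay close together. The ratio of means, 422 ± 84.8 (SD, n = 4) to 91.0 ± 13.3 (SD, n = 2), was 4.63. Of its 6052 exon bases, 957 or 15.8% overlap the antisense gene Gm16278, which is not analysed here, so that reads of both cannot be told apart; a further 330 bases overlap Nhlrc4, which had 0 reads in all 11 libraries.

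Zdhhc13 encodes an ankyrin-repeat member of the enzymes that attach palmitate to proteins. It stood at 178 and 46.3 normalised counts under vehicle and at 674, 573, 357 and 376 under EB. The ratio of means was 4.41, and the lowest EB library was 2.00 times the higher vehicle library.

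On the scale of log2(normalised count + 1), the EC differences between EB and vehicle means were 6.55 for Pla2g3, 6.18 for Gpr35, 4.97 for Slc17a4, 4.93 for Tnni1, 4.73 for Zfp217, 3.55 for Clmn, 2.38 for Zdhhc13 and 2.19 for Pigq. They ranked between 2 and 1271 among the 15287 genes kept, so the 8 genes are not the 8 with the largest rise; 8.31% of the genes kept had a difference at least as large as that of Pigq, which again only restates the choice. Another 148 genes with a mean of at least 50 normalised counts had separated groups and a difference no smaller than that of Pigq. Just below it lay Phgr1, a gene of gut epithelium, and ATP6, a gene of the mitochondrial genome, each with a difference of 2.17. For 6 of the genes the size of the difference depended on which vehicle library was used. Without vehicle replicate 2 the differences were 1.93 for Clmn, 1.42 for Zdhhc13, 3.36 for Slc17a4 and 4.53 for Gpr35, and without vehicle replicate 1 they were 5.17, 3.34, 6.57 and 7.82. Pigq moved little, to 2.04 and 2.34, and Pla2g3, at 0 in both vehicle libraries, stayed at 6.55. Without EB replicates 1 and 2, the libraries with the least EC marker RNA, the differences were 5.65 for Gpr35, 5.64 for Pla2g3, 4.33 for Zfp217, 3.66 for Slc17a4, 3.27 for Tnni1, 2.52 for Clmn, 2.05 for Pigq and 2.00 for Zdhhc13.

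Colonocyte RNA was higher in the EB group of EC cells, so the 8 genes were set beside it. All 19 colonocyte markers kept had a higher mean under EB, with a median log2 difference of 2.34 against -0.071 over all genes; 0 of them passed an adjusted p under 0.05 in limma and 6 had an unadjusted p under 0.05. Of the 20 markers, 18 had overlapping groups, and Slc51a and Slc51b were higher in every EB library. Car1 ranged from 1740 to 14388 normalised counts under vehicle and from 10144 to 135246 under EB. A few markers were at 0 in some library: Ms4a10 in both vehicle libraries and in EB replicates 2 and 4, and Alpi and Slc51a in vehicle replicate 2.

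Single libraries were also compared with vehicle replicate 1, where the colonocyte list was nearly level in EB replicate 3 and lower in EB replicate 4. In normalised counts, the colonocyte list in EB replicate 3 was 0.972 times that in vehicle replicate 1, and in EB replicate 4 it was 0.565 times. Against the same vehicle library, Gpr35 was 7.76 times as high in EB replicate 3 and 40.3 times in EB replicate 4. Zfp217 was 8.52 and 8.73 times as high, Tnni1 9.45 and 2.88 times, and Slc17a4 3.29 and 5.43 times. Pigq was 3.80 and 3.74 times as high, Zdhhc13 2.00 and 2.11 times, and Clmn 1.65 and 2.15 times. Pla2g3, with no read in the vehicle library, had 66 and 52 reads. That all 8 genes were higher in these EB libraries was fixed by their choice, so only the sizes of the ratios are described, beside that of the colonocyte list. Against the same library, EB replicates 1 and 2 had 4.20 and 4.31 times the colonocyte list, and there Tnni1 was 60.3 and 46.1 times and Slc17a4 43.2 and 15.7 times as high. Zdhhc13, at 3.78 and 3.22 times, was below the colonocyte ratio in both of them, and Pigq, at 5.46 and 3.79 times, was below it in EB replicate 2. Against vehicle replicate 2, the other choice of control, EB replicates 3 and 4 had 3.43 and 1.99 times the colonocyte list. These are ratios of single libraries, with no replicate check.

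**Figure D2:**
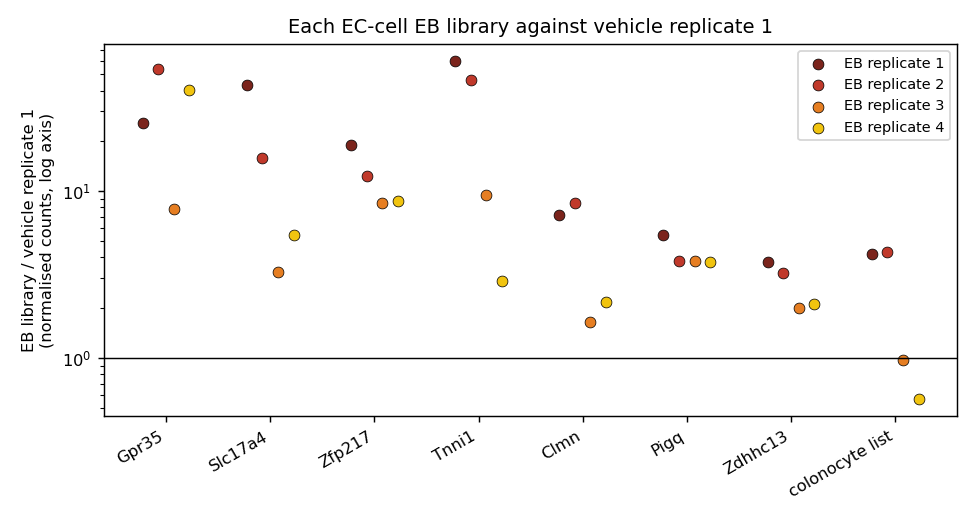
Each EC EB library as a ratio to vehicle replicate 1, on a logarithmic axis, for the summed colonocyte markers and for the 7 genes with a read in that vehicle library. In EB replicates 3 and 4 the colonocyte ratio is 0.972 and 0.565, and all 7 genes lie above 1, which their choice fixed.

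Counted per 1000 reads of the colonocyte list in the same library, 6 of the 8 genes remained higher in every EB than in every vehicle library of EC cells. Of all genes kept, 0.968% did so, and 9.82% were lower in every EB library; since the choice used the same contrast, this too is a description. Gpr35 had 0.127 and 0 reads per 1000 under vehicle and 0.774, 1.59, 1.02 and 9.08 under EB. Zfp217 had 0.261 and 0.113 under vehicle and 1.18, 0.744, 2.29 and 4.04 under EB. For Tnni1 the values were 0.221 and 0.169 against 3.17, 2.36, 2.15 and 1.13, so that this gene was lowest in the EB library where Gpr35 and Zfp217 were highest. Pla2g3 was at 0 under vehicle and at 0.445 to 1.07 under EB, Slc17a4 at 0.169 to 0.563 and 1.90 to 5.80, and Clmn at 0.844 to 2.37 and 4.02 to 9.04.

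The exceptions were the enzymes Pigq and Zdhhc13. Pigq had 1.45 and 4.16 reads per 1000 colonocyte reads under vehicle and 1.89, 1.28, 5.69 and 9.64 under EB. Zdhhc13 had 2.58 and 2.36 under vehicle and 2.32, 1.93, 5.32 and 9.64 under EB. In both genes EB replicates 3 and 4 lay above the vehicle libraries. EB replicates 1 and 2 lay below both vehicle libraries for Zdhhc13, as EB replicate 2 did for Pigq, while EB replicate 1 lay between the vehicle libraries for Pigq. With Car1 left out of the list, 7 of the 8 genes were separated, with Pigq as the exception, against 1.47% of all genes. The part that colonocyte RNA, or mitochondrial RNA, has in the EC values of the 8 genes was not tested.

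**Figure D3:**
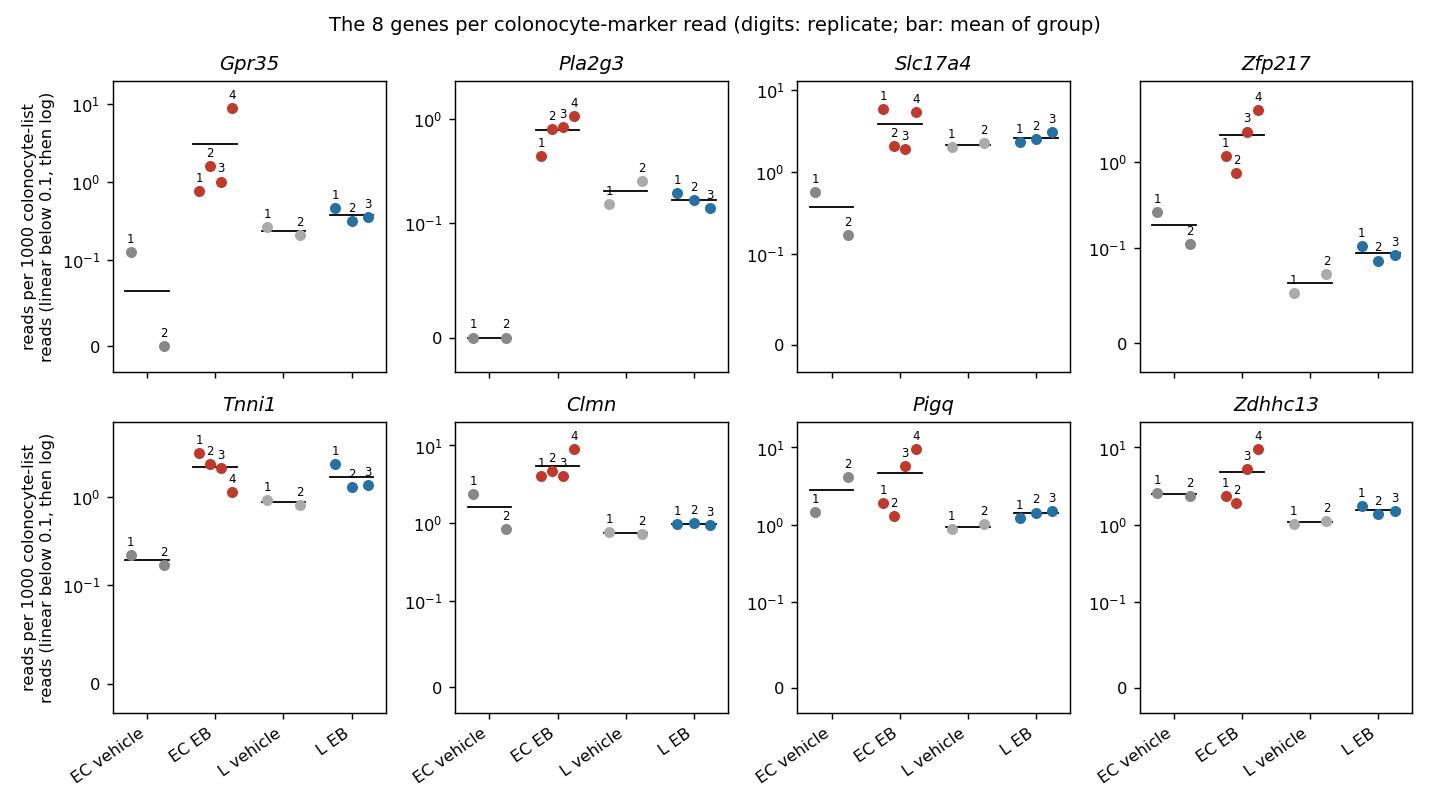
Reads of the 8 genes per 1000 reads of the colonocyte list in every library, on an axis that is linear below 0.1 and logarithmic above, with replicate numbers and a bar for the group mean. EC EB and EC vehicle points are apart for 6 genes and overlap for Pigq and Zdhhc13; the points of Zfp217 lie above its L-cell values, 0.0533 to 0.106, in EC libraries of both groups.

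In L cells, 0 of the 8 genes passed an adjusted p under 0.05 in limma, with Benjamini-Hochberg adjustment over all 16217 genes kept. With 2 vehicle and 3 EB libraries, this does not show that they were unchanged. Of all genes, 0.0247% were called, 0.0123% higher and 0.0123% lower, and 11.6% had an unadjusted p under 0.05. The members' log2 differences were positive for 3 and negative for 5, with a median of -0.036 against -0.0022 over all genes. Colonocyte markers there had a lower mean under EB on the log2 scale for 17 of 20, with a median log2 difference of -0.42. In every EB library 10 of the 20 were lower. By limma 7 had an unadjusted p under 0.05 and 0 were called. Markers of some other cells had higher means under EB on the log2 scale: 5 of 5 of L cells, 8 of 8 of goblet cells and 7 of 7 of stem and cycling cells. Their median log2 differences were 2.35, 0.73 and 1.43, with 0 called by limma. Of these, 5, 2 and 5 had an unadjusted p under 0.05 in limma. Stroma markers went the other way, with 0 of 5 higher, 4 lower in every EB library and a median log2 difference of -4.49. They took 0.0270% of reads in vehicle replicate 2 and 0.000745% in vehicle replicate 1. Tuft and immune markers were mixed, with 3 of 5 higher in each list. The part of these cells in the L-cell values of the 8 genes was not tested.

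Pla2g3 was at 486 and 770 normalised counts under vehicle and at 398, 355 and 280 under EB in L cells, so every EB library was below both vehicle libraries. The log2 difference was -0.84 ± 0.26 (SE; 95% interval -1.45 to -0.24), with an unadjusted p of 0.0126 and an adjusted p of 0.293 in limma, and the adjusted p ran from 0.0786 to 0.690 over the alternatives. Its antisense neighbour Inpp5j was there at 7512 and 11754 under vehicle and at 6033, 7086 and 6437 under EB, so it too was lower in every EB library, and reads of both genes cannot be told apart in the bases they share. Slc17a4 was at 6316 and 6745 under vehicle and at 4682, 5274 and 6103 under EB, a difference of -0.29 ± 0.15 (SE; adjusted p of 0.492 in limma). Clmn was at 2496 and 2175 under vehicle and at 1978, 2109 and 1925 under EB, a difference of -0.22 ± 0.14 (SE; adjusted p of 0.588 in limma). These 3 of the 8 genes were lower in every EB library in normalised counts, as were 14.0% of all genes. Scaled to the reads of each library and exon length (RPKM), 1 of the 8 was, Pla2g3, while Slc17a4, at 28.2 to 36.1 under EB and 34.5 to 35.1 under vehicle, and Clmn, at 5.48 to 5.97 and 5.35 to 6.68, overlapped. None of the 8 was higher in every EB library, against 14.3% of all.

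The other 5 genes had overlapping groups in L cells. Gpr35 stood at 832 and 623 normalised counts under vehicle and at 941, 679 and 720 under EB. Its log2 difference was 0.10 ± 0.21 (SE), with a 95% interval of -0.39 to 0.59. Zfp217 was at 170.2 and 219 against 216, 185 and 187, with an interval of -0.56 to 0.60. Tnni1 was at 2959 and 2425 under vehicle and at 4777, 2775 and 2776 under EB, where replicate 1 alone was far above the rest; its interval ran from -0.27 to 0.89. For Pigq the values were 2762 and 3042 against 2526, 3049 and 3070, with an interval of -0.35 to 0.32. For Zdhhc13 they were 3227 and 3397 against 3609, 2952 and 3023, with an interval of -0.39 to 0.27. The adjusted p of these 5 genes ran from 0.685 to 0.988 in limma. The upper ends of all 8 intervals were at most 0.89. The EC differences, of which 2.19 was the smallest, were large by choice, so nothing is read from setting the intervals beside them. Whether the difference between the cell types exceeds error was not tested, because the EC contrast chose the genes.

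**Figure D4:**
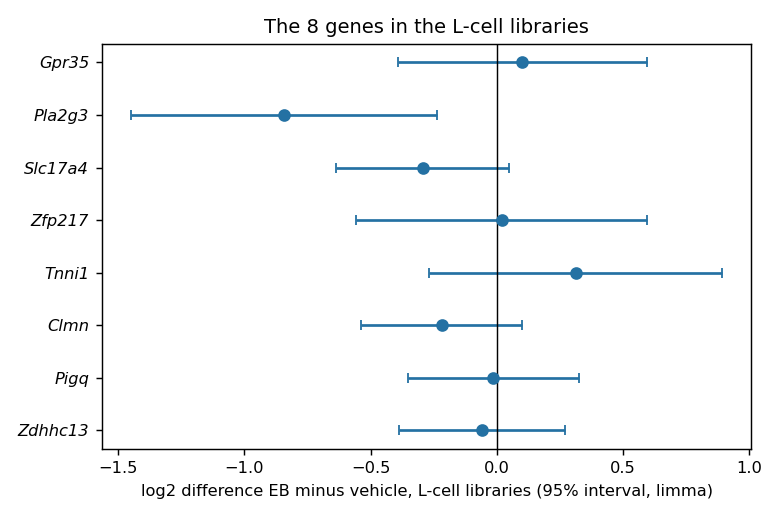
Log2 difference of EB from vehicle in L cells for the 8 genes, with points for the estimates and bars for the 95% intervals from limma. The interval of Pla2g3, -1.45 to -0.24, lies below 0, and the 7 others include 0.

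Per 1000 colonocyte reads, 7 of the 8 genes were higher in every EB library of L cells, all but Pla2g3, where 60.6% of all genes were; 0 of the 8 were lower in every EB library, where 0.919% of all genes were. The colonocyte share there was 9.21% and 10.6% under vehicle and 7.17% to 7.46% under EB. With Car1 left out of the list, 5 of the 8 were higher in every EB library, against 46.1% of all genes, and Slc17a4 and Clmn then overlapped as well as Pla2g3.

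Levels per length, in reads per kilobase of exon scaled to library size (RPKM), ordered the 8 genes as follows in L cells. Zdhhc13 at 43.0 to 53.9 lay above Slc17a4 at 28.2 to 36.1, and Tnni1 at 20.6 to 47.7 overlapped both. Pigq lay at 15.0 to 17.9, apart from its neighbours. Clmn at 5.35 to 6.68 and Gpr35 at 3.93 to 6.99 overlapped, as did Gpr35 and Pla2g3 at 2.11 to 5.01. Zfp217 was lowest at 0.921 to 1.27. In EC EB libraries the ranges were wide, and Slc17a4 ran from 3.92 to 35.9 and Tnni1 from 2.24 to 32.6, while Zdhhc13 stayed between 27.1 and 35.6 and Pigq between 8.58 and 11.6. Zfp217, at 4.59 to 7.08, was above its L-cell range in every EC EB library and, at 0.0657 to 0.597, below it in both EC vehicle libraries.

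Relatives and partners of the 8 genes were counted from lists of 92 genes. In EC cells 75 were kept, and 39 of these had a higher mean under EB, with a median log2 difference of 0.11. By limma 0 passed an adjusted p under 0.05 and 3 had an unadjusted p under 0.05 (Syne2, Pigv and Zdhhc21), against 3.55% of all genes. Complete separation upward was seen for 4 of the 75, or 5.33% against 4.98% of all genes. These were Dpm2, Pigm, Pigv and Gpaa1, from the lists of GPI anchor synthesis, which held 6 and 12 of the kept genes. In those lists 3 of 6 and 8 of 12 genes were lower under EB on the log2 scale. That the separated genes share a synthesis was seen afterwards and was not tested. Another 4 were lower in every EB library, where 6.30% of all genes were, and Piga of the same synthesis was among them. In L cells 78 were kept, and 33 had a higher mean under EB on the log2 scale. By limma 0 passed an adjusted p under 0.05 and 11 an unadjusted p under 0.05, where 11.6% of all genes did. In every EB library 12 were higher, or 15.4% against 14.3% of all genes, and 12 were lower.

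By role, with higher meaning a higher mean on the log2 scale, the partners of Gpr35 signalling had 2 of 6 kept genes higher in EC cells. Gnai2, a G protein subunit of inhibitory receptors, was at 681 and 3084 normalised counts under vehicle and at 793, 1199, 370 and 466 under EB. Of the phospholipases A2, 5 of 11 were higher. Pla2g4c, a cytosolic member, was at 984 and 15.4 under vehicle and at 131, 2780, 206 and 0 under EB. The Slc17 carriers had 4 of 5 higher, and the vesicular nucleotide carrier Slc17a9 was at 232 and 2.21 under vehicle and at 879, 276, 194 and 0 under EB. All these groups overlapped. The corepressor partners of ZNF217 had 4 of 8 higher, and the deacetylase Hdac1 among them was at 1605 and 1784 under vehicle and at 1456, 668, 1390 and 1108 under EB. Of the 7 other troponin genes 1 was kept, the cardiac Tnnt2, at 0 under vehicle and at 71.6, 0, 13.8 and 17.6 under EB. The other subunits of the enzyme that holds Pigq had 3 of 6 higher, and Dpm2, which also serves dolichol mannose synthesis, was at 228 and 327 under vehicle and at 430, 352, 357 and 382 under EB. Of the later steps of GPI anchor synthesis 4 of 12 were higher, and the transamidase subunit Pigt was at 560 and 719 under vehicle and at 594, 545, 519 and 448 under EB. The list drawn up around Clmn, of calponin and spectrin-type proteins with the adhesion protein Clmp, which is neither, had 5 of 7 higher. Syne2, which links the nucleus to actin, was at 568 and 172 under vehicle and at 2005, 1565, 479 and 507 under EB. The palmitoyl transferases had 11 of 19 higher, and Zdhhc20 was at 516 and 345 under vehicle and at 528, 693, 487 and 728 under EB. The log2 differences of these 9 named relatives in EC cells had an adjusted p from 0.905 to 0.984 in limma.

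Among 10299 genes with a mean of at least 50 normalised counts, those whose profile over the 6 EC libraries was most like the mean standardised profile of the 8 were Mllt10 (Pearson r of 0.996), Plin2 (0.990), Rexo1 (0.990), Zfp36l2 (0.986) and Fbxl18 (0.986). The members' own r ran from 0.952 to 0.989, but each is part of the mean it is compared with, so a high r is built in. That of the colonocyte markers ran from 0.307 to 0.943, and nothing is read from setting the ranges side by side. These r describe 6 libraries that share the split into EB and vehicle, and the search was over many genes. Plin2, which coats lipid droplets, was at 465 and 344 normalised counts under vehicle and at 671, 665, 565 and 549 under EB. Mllt10, a partner of the histone methyltransferase DOT1L, was at 199 and 112 under vehicle and at 539, 470.4, 348 and 322 under EB. Fbxl18, an F-box protein, was at 21.3 and 4.41 under vehicle and at 199, 248, 57.9 and 119 under EB. All 3 had the lowest value in vehicle replicate 2, as the 8 genes did, which a search for a like profile favours.

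In mm10, per RefSeq, Gpr35 lies at chr1:92948052-92986391, Tnni1 at chr1:135783033-135810989, Zdhhc13 at chr7:48788998-48827440 and Pla2g3 at chr11:3488158-3499346, all on the plus strand. Zfp217 at chr2:170108643-170151677, Clmn at chr12:104763114-104865082, Slc17a4 at chr13:23897879-23915009 and Pigq at chr17:25926420-25942881 are on the minus strand. Counts are over whole genes, exons of all transcripts together, so they do not tell which of the starts shown was used.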

How the data were processed

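RNA of isolated colon cells was amplified as full-length cDNA by SMART-Seq and cut by a transposase for sequencing, per the labels' protocols. The submitters' processing notes name STAR, featureCounts, DESeq2 and mm10, with no versions or settings. What the authors deposited is a signal for each gene in each library, namely normalised counts, in separately normalised tables for EC and L cells. Dividing a column by its smallest value above 0 gave the reads, and 100% of values came out whole with a tolerance of 0.001 read. The 8 genes and all gene lists were chosen with earlier results of these data known.

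A gene was kept if it reached 10 in 2 libraries. For each cell type alone, limma 3.58.1 in R 4.3.3 was fitted to log2(value + 1) of all genes kept, with its trend option. Differences on that scale understate the change of low genes. A limit of 3 reads stands for a count of 0 and covers counting error only. The recovered reads were also tested with edgeR 4.0.16 and DESeq2 1.42.0 as alternatives. The relatives described are those with the highest EC mean in their list, and the genes with a like profile are the 5 with the highest Pearson r; others were named after their values were seen. Exon lengths are those of all transcripts of a gene joined, from GENCODE M21. Promoters are from RefSeq.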

Additional observations from a re-analysis of the deposited data

Results flagged for a closer look

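Pigq in EC cells stood at 549 normalised counts in EB replicate 1, far from the other 3 EB libraries, the nearest of which was at 382. Chance alone marks about 1 in 20 groups in this way, and each of the 8 genes was examined.

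Pla2g3, Slc17a4 and Clmn were lower in every EB than in every vehicle library of L cells, as were 14.0% of all genes. Their log2 differences there were -0.84, -0.29 and -0.22. In EC cells they were higher in every EB library, which their choice fixed. In RPKM, only Pla2g3 was lower in every EB library of L cells, and the groups of Slc17a4 and Clmn overlapped. The difference between the cell types was not tested, because the EC contrast chose the genes.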

How the results depend on the processing

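The EC differences of the 8 genes kept their direction in all alternatives run, with 121 values within the spread of the libraries. These are the values that chose the genes. Pla2g3 alone moved beyond its spread, in 7 settings, between 4.61 and 10.1. In L cells 102 alternative values kept their direction and 10 changed sign, for genes with differences near 0: Pigq with TMM (0.0032) and quantile normalisation (0.076), Zfp217 and Zdhhc13 with quantile normalisation (-0.11 and 0.040), and, with a library left out, Pigq (-0.084 to 0.078), Zfp217 (-0.16 to 0.20) and Gpr35 (-0.11 to 0.31). The cause was not tested.

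Counts over all genes depended strongly on the setting. In L cells limma called 4 genes, against 139 with no filter, 15 with quantile normalisation, 0 with edgeR (1849 at an unadjusted p under 0.05) and 519 with DESeq2. With a library left out it called 0 to 174, namely 174 and 62 when vehicle replicate 1 or 2 was dropped and 0 when any EB replicate was. In EC cells limma called 0 genes (542 at an unadjusted p under 0.05), edgeR 0 (415) and DESeq2 11, and 0 to 1 with a library left out, the 1 without vehicle replicate 1. A vehicle library left alone was assumed to vary like the other group. Genes separated upward in EC cells numbered 761, 2199 without EB replicates 1 and 2, and 1114 to 2984 with a library left out, since fewer libraries meet the condition more easily. Per colonocyte read, 6 of the 8 genes were separated upward, against 0.968% of all genes, and 7 without Car1, against 1.47%. The same contrast chose the 8 genes, so these counts are a description.

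With the replicate number as a replicate block, 56 genes were called in L cells and 24 in EC cells. Replicates 1 and 2 are the only numbers shared by the groups. The deviations of same-numbered libraries correlated at 0.157 and 0.148 in L cells and at 0.0361 and 0.00685 in EC cells, and no label ties a number to a shared animal or day. With 2 vehicle libraries a group, and as few as 0 to 84 reads for 5 of the genes there, the size of the EC differences is poorly fixed.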
